A study of Mus musculus with 8 samples.

Results

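The addition of the TH2 factor GATA3 to cells that already expressed the TH1 factor T-bet was examined in EL4 cells, a T lymphoblast line from C57BL/6 mice. The comparison takes the libraries labelled T-bet + GATA3 (replicates 1 and 2) against those labelled T-bet + Plum (replicates 1 and 2), 4 of the 8 RNA-seq libraries. Cells of the T-bet + GATA3 line had been transduced with retroviruses for FLAG-T-bet and HA-GATA3, and cells of the T-bet + Plum line with FLAG-T-bet and the fluorescent protein Plum. The GFP + GATA3 and GFP + Plum lines, in which GFP takes the place of T-bet, give the effect of GATA3 without T-bet. All cells, controls included, were stimulated with the phorbol ester PMA at 50 ng/ml and with ionomycin at 1 μM for 4 h. Each line is a single transduced line, its replicates are harvests on different days per the study's methods, and EL4 cells make their own GATA3, so that the Plum lines are not free of it. P-values therefore measure the spread between harvests within a line, pooled over the 4 lines of the fit, and not the spread between separately made lines.

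GATA3 is a zinc finger protein needed for early T cell development, and in helper T cells it switches on Il4, Il5 and Il13, the cytokine genes of TH2 cells. T-bet, encoded by Tbx21, switches on Ifng and the chemokine and receptor genes of TH1 cells, and the opposing factors can be present in the same cell. The question here is which genes still respond to GATA3 once T-bet is there.

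The 4 libraries held 8038284 and 14878143 counts (T-bet + Plum) and 9807601 and 15286073 counts (T-bet + GATA3), and 14791 genes were tested. Levels are given as CPM, that is counts scaled to a common TMM-adjusted library size, and differences as log2 fold changes (FC) from edgeR's quasi-likelihood test, with the Benjamini-Hochberg FDR. The T cell markers Cd3d, Cd3e, Cd3g, Cd247, Thy1 and Lck summed to between 657 and 929 CPM in these 4 libraries, although Cd247 had at most 10 counts in any library. Summed markers were at most 1.24 CPM for B cells, 0.102 for epithelial and 0 for erythroid cells. The lines did not overlap for fibroblast markers, at 3.11 to 5.65 in T-bet + Plum and 6.21 to 6.22 in T-bet + GATA3, nor for myeloid markers, at 3.23 to 3.98 and 2.24 to 2.75, and the part of this in the results was not tested. Of all genes tested, 14.2% did not overlap on the higher side and 16% on the lower side. In each of these 4 libraries the fibroblast markers Col1a1 and Col1a2 had at most 1 count. The myeloid markers Csf1r, Adgre1 and Cd14 had at most 2. Cd79b, Col3a1, Cdh1, Epcam, Krt8, Hba-a1 and Hbb-bs had 0 counts in every library. In bulk RNA a smaller share of expressing cells and less RNA per cell cannot be told apart.

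Gata3 (chromosome 2, 9857078 to 9890034 on GRCm38, minus strand) was the check of the labels, and it overlaps the antisense gene Gm13256 and the genes 4930412O13Rik and 9230102O04Rik, whose reads may not be separable from its own. It was at 25.8 and 34.9 CPM in T-bet + Plum and at 204 and 165 CPM in T-bet + GATA3, and the libraries did not overlap. Its log2 FC was 2.59 (SE 0.21, edgeR FDR = 0.00887), beside 2.71 (SE 0.21) in GFP + GATA3 versus GFP + Plum. Kallisto assigned 237 and 302 estimated counts in T-bet + GATA3, and 0 in both T-bet + Plum libraries, to the Gata3 transcript ENSMUST00000130615.1, although introduced and endogenous transcripts were not otherwise separated. Tbx21 was at 129 and 159 CPM without and 135 and 160 CPM with HA-GATA3. Its groups overlapped, with a log2 FC of 0.04 (95% interval -0.48 to 0.55, edgeR FDR = 1) whose sign turned under scaling by library size only (-0.00081). The Gata3 call was lost without T-bet + Plum replicate 1 (FDR = 0.153), T-bet + GATA3 replicate 1 (0.0853) or T-bet + Plum replicate 2 (0.0952).

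Of the 14791 genes, 5 were called (0.0338%), which required |log2 FC| > 1.5 together with FDR <= 0.05. Of these, 3 rose, namely Gata3, Gpnmb and Mrgprx1, and 2 fell, the long intergenic RNAs Gm4316 and Gm42031. DESeq2 called 23 genes (14 up, 9 down), among them the same 5, and edgeR without a filter on low counts called 124, again with these 5. The median log2 FC over all genes was 0.00069, and 62.4% of genes had a 95% interval that lay within 1 of 0. Within 100 kb, 2 other genes were tested near Gpnmb (log2 FC 0.01 and 0.15) and 1 near Mrgprx1 (-0.33), and 0 of these had an unadjusted p below 0.05 in edgeR.

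The promoters of the called genes other than Gata3 are shown because these genes passed the threshold in the presence of T-bet. RefSeq windows of 300 bases on GRCm38.p6, from 250 bases before the start to 50 bases after it, were found for 4 of 5 genes searched, and Ly6a had no entry. Capitals mark GATA motifs, searched on both strands as the motif AGATAA or the motif AGATAG or the motif TGATAA or the motif TGATAG, and the T-box motif GGTGTGA was searched in the same way. None of these motifs overlapped.
Gpnmb, chr6:49036268-49036567, plus strand: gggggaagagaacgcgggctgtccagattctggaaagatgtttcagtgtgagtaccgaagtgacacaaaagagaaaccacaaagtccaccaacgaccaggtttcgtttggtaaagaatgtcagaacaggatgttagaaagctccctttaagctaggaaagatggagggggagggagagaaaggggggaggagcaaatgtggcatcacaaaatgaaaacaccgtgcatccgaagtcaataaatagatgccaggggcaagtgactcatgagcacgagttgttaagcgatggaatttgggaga
Mrgprx1, chr7:48027548-48027847, minus strand: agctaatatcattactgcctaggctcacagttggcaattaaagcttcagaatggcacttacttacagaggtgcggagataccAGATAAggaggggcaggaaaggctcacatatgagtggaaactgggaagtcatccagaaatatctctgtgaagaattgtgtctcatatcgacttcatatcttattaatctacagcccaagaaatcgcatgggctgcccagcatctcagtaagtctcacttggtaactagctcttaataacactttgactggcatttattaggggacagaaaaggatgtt
Gm4316, chr8:123172312-123172611, plus strand: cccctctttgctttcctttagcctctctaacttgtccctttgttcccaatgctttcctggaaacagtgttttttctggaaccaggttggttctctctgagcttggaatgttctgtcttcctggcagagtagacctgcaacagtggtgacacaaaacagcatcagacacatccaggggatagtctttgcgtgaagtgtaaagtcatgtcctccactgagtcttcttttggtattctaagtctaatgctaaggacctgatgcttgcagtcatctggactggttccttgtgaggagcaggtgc
Gm42031, chr8:85131765-85132064, minus strand: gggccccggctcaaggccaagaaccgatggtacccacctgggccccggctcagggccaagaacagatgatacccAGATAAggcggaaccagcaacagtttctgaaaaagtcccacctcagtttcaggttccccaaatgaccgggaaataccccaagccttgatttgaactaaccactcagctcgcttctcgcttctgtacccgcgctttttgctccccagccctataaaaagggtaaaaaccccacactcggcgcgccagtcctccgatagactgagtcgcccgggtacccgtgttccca
The Mrgprx1 and Gm42031 windows each held 1 AGATAA, beginning 168 and 176 bases before the start, and the T-box motif was in none of the 4. A GATA motif of this kind was in 29.8% of all 32851 windows and in 19.4% of the 11605 windows of genes tested, and the T-box motif in 3.98% and 3.37%, so that a match describes the letters and not a site. The RefSeq starts of Gm4316 and Gm42031 lie inside the Gencode genes, and so does the AGATAA of Gm42031.

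Gpnmb (chromosome 6, 49036546 to 49070929 on GRCm38, plus strand) encodes a transmembrane glycoprotein best known from macrophages and melanocytes. It was at 31.7 and 28.7 CPM in T-bet + Plum and at 98.2 and 107 CPM in T-bet + GATA3, so both libraries with GATA3 lay well above both without. The log2 FC was 1.77 (SE 0.13, edgeR FDR = 0.0045). Without T-bet the gene was far more abundant, at 361 and 329 CPM in GFP + Plum and 612 and 664 CPM in GFP + GATA3, a log2 FC of 0.89 (SE 0.12, FDR = 0.102). The call was lost without T-bet + Plum replicate 1 (FDR = 0.0825) or replicate 2 (FDR = 0.116).

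Mrgprx1 (chromosome 7, 48020971 to 48027597, minus strand) encodes a Mas-related G protein-coupled receptor, a family known from sensory neurons. It had 1 count in each T-bet + Plum library and 50 and 66 counts in T-bet + GATA3, or 5.41 and 4.39 CPM. The summed counts differed 54.1-fold after scaling, with a 95% interval of 14.6 to 452 that covers counting error only (edgeR FDR = 0.0395). In GFP + Plum it had 0 counts in both libraries, and 73 and 159 counts in GFP + GATA3. Kallisto can share fragments between Mrgpr genes of like sequence, which makes the count uncertain. Of the 18 Mrgpr genes listed only Mrgprx1, Mrgpra1 and Mrgpre passed the filter, and Mrgprx1 alone was called. With at most 1 count in each Plum library, Mrgprx1 could pass only through the GATA3 lines. That it was tested at all thus follows from the difference then tested. Its call was lost in 6 of the 8 fits that left out a library, with FDRs from 0.0643 to 0.695, those without either GFP + Plum library being the exceptions. It was also lost with protein-coding genes only (FDR = 0.0534) and in a fit of the compared libraries alone (FDR = 0.0789).

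Gm4316 (RP23-115O21.3 in the deposited files) spans 123165255 to 123178765 on the plus strand of chromosome 8. It was at 367 and 455 CPM in T-bet + Plum and at 55.6 and 55.5 CPM in T-bet + GATA3. This gene had the smallest p of all, with a log2 FC of -2.89 (SE 0.16, edgeR FDR = 0.000973), and its call held with each library left out in turn. In GFP + Plum it was at 469 and 478 CPM and in GFP + GATA3 at 218 and 263 CPM, a log2 FC of -0.98 (FDR = 0.144). The difference between these effects was -1.91 (95% interval -2.38 to -1.43, FDR = 0.211 for the interaction). Gm4316 lies within Gm20388, a long protein-coding annotation on the same strand, which was at means of 50.0 and 56 CPM (log2 FC 0.16). Of the 12 genes tested within 100 kb, 0 had an unadjusted p below 0.05 by edgeR, and their log2 FCs lay between -0.66 and 0.42.

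Gm42031 (RP23-359B23.11 in the deposited files) spans 85125872 to 85132289 on the minus strand of chromosome 8 and overlaps no other annotated gene. It was at 27.4 and 37.3 CPM in T-bet + Plum and at 5.84 and 6.98 CPM in T-bet + GATA3, with no overlap. Its log2 FC was -2.33 (SE 0.22, edgeR FDR = 0.0164), and -0.69 (FDR = 0.782) without T-bet, from 28.8 and 36.7 CPM to 20.7 and 19.9 CPM. Among the 10 genes tested within 100 kb, 0 had an unadjusted p below 0.05, with log2 FCs between -0.45 and 0.29. The call was lost in 6 of the 8 fits that left out a library (FDRs from 0.051 to 0.288) and in a fit of the compared libraries alone (FDR = 0.0789). The exceptions were the fits without either GFP + Plum library.

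**Figure D1:**
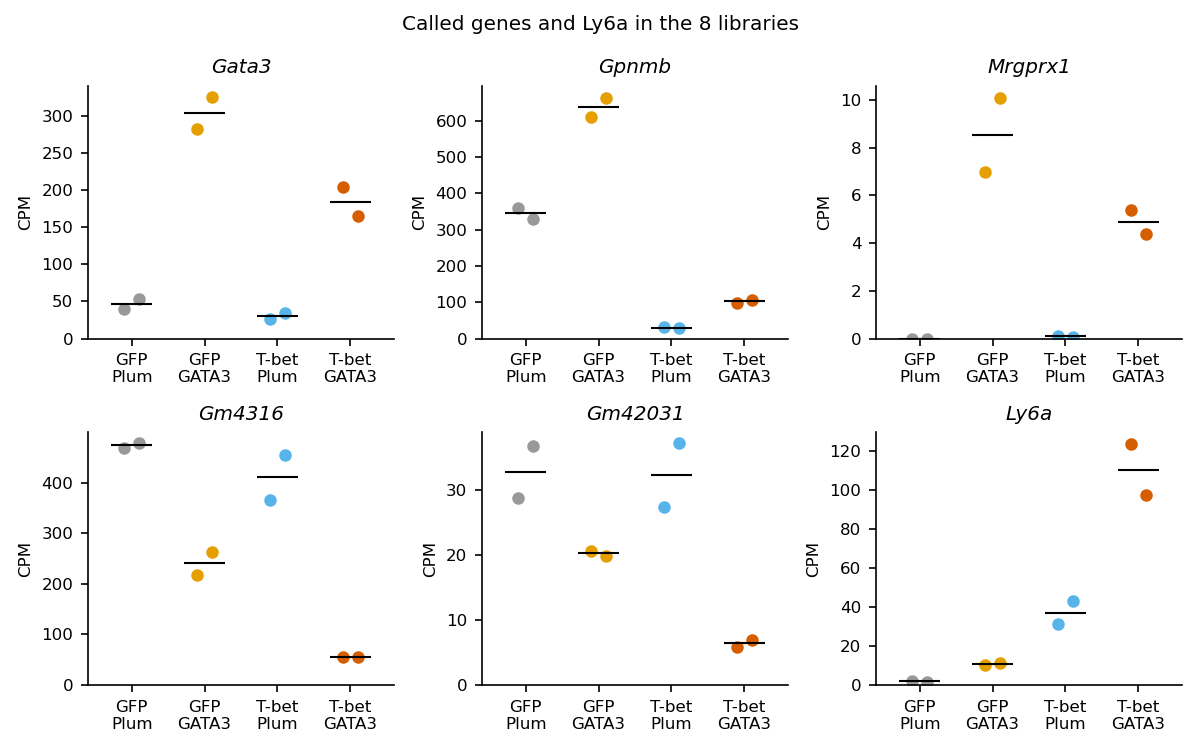
CPM (vertical axes, from 0) of the 5 called genes and of Ly6a in each of the 8 libraries, grouped by line, with a bar at the mean of 2 libraries. In every panel both T-bet + GATA3 points lie on one side of both T-bet + Plum points, and Gm4316 fell from 367 and 455 CPM to 55.6 and 55.5 CPM.

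At an unadjusted p below 0.05 in edgeR, 278 genes were higher (1.88%) and 281 lower (1.9%), the called genes included. The libraries did not overlap for 14.2% of genes on the higher side and 16% on the lower side. The 20 protein-coding genes of smallest p that were not called, 10 on each side, are described next. DESeq2 called 5 of the 10 higher genes (Ly6a, St6gal2, Rgs13, Acod1 and Nrxn3) and 6 of the 10 lower ones (Il17f, Edil3, Spink5, Ltb, Actbl2 and Nkg7). Over all 14791 genes it called 23. Because the 20 genes were picked by small p from the same counts, these calls are not separate support.

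Ly6a, which encodes the surface protein Sca-1 found on stem cells and activated lymphocytes, came closest to the threshold. It was at 31.2 and 42.9 CPM in T-bet + Plum and 123 and 97.2 CPM in T-bet + GATA3, with a log2 FC of 1.56 (SE 0.19, edgeR FDR = 0.0708). The gene was called without T-bet, where it rose from 1.86 and 1.78 to 10.1 and 11.2 CPM (log2 FC 2.55, FDR = 0.0218). It was thus higher in each line with GATA3 than in its control, and higher in each line with T-bet than in the line with GFP. Gzma, which encodes the cytotoxic protease granzyme A, had the same pattern at 138 and 159 CPM in T-bet + Plum and 336 and 352 CPM in T-bet + GATA3. Its log2 FC was 1.21 (SE 0.17, FDR = 0.116) with T-bet and 1.03 (SE 0.17, FDR = 0.229) without it.

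Rgs13, a brake on G protein signalling, was at 0.498 and 1.23 CPM in T-bet + Plum and at 9.62 and 9.64 CPM in T-bet + GATA3, against 39.4 and 20.7 CPM in GFP + Plum. St6gal2, a sialyltransferase gene, had 0 and 1 counts in T-bet + Plum and 42 and 62 in T-bet + GATA3, a ratio of 97.0 (95% interval 17.0 to 3870, counting error only). Acod1, which encodes the enzyme that makes itaconate, went from 2.36 and 2.19 to 10.1 and 13.8 CPM. Their edgeR FDRs were 0.0965 for Rgs13 and Acod1 and 0.0718 for St6gal2. None of the 3 passed the threshold, and their groups did not overlap. Mylk4, a myosin light chain kinase family gene, was at 30.4 and 29.0 CPM in T-bet + Plum and 59.6 and 54.0 CPM in T-bet + GATA3 (log2 FC 0.94, FDR = 0.129). Without T-bet it was lower in both GATA3 libraries, at 34.6 and 32.7 CPM against 44.9 and 51.9 CPM, and the interaction was 1.46 (95% interval 1.03 to 1.89, FDR = 0.363). The other higher genes were the neurexin gene Nrxn3 (log2 FC 2.08), the GD3 synthase gene St8sia1 (1.41), 2510009E07Rik (1.10) and the peroxiredoxin gene Prdx4 (0.73), with FDRs from 0.194 to 0.331.

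Il17f, a cytokine gene of TH17 cells, was first among the lower genes. It was at 6.35 and 10.1 CPM in T-bet + Plum and 1.51 and 1.66 CPM in T-bet + GATA3 (log2 FC -2.38, SE 0.33, edgeR FDR = 0.116), and at 108 and 82.7 CPM in GFP + Plum and 45.3 and 32.7 CPM in GFP + GATA3. The lines with T-bet thus lay below those with GFP, and each line with GATA3 below its control. Ltb, which encodes lymphotoxin beta, was at 11.9 and 12.4 CPM and at 2.49 and 2 CPM (log2 FC -2.46, SE 0.47, FDR = 0.396). Nkg7, a cytotoxic granule membrane gene that was at 0 or 1 count in GFP + Plum, was at 38.8 and 55.7 CPM in T-bet + Plum. In T-bet + GATA3 it was at 20.7 and 11.8 CPM (log2 FC -1.56, SE 0.31, FDR = 0.479). B4galnt1, which encodes the GM2 and GD2 ganglioside synthase, was at 208 and 214 CPM and at 122 and 143 CPM (log2 FC -0.67, SE 0.12, FDR = 0.364). The remaining lower genes were Xcl1, described with the chemokines, and the integrin ligand gene Edil3 (log2 FC -2.23), the protease inhibitor gene Spink5 (-3.12), Fam135b (-2.34), the actin-like gene Actbl2 (-2.57) and the DNA-binding factor gene Arid3b (-0.68), with FDRs up to 0.524.

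**Figure D2:**
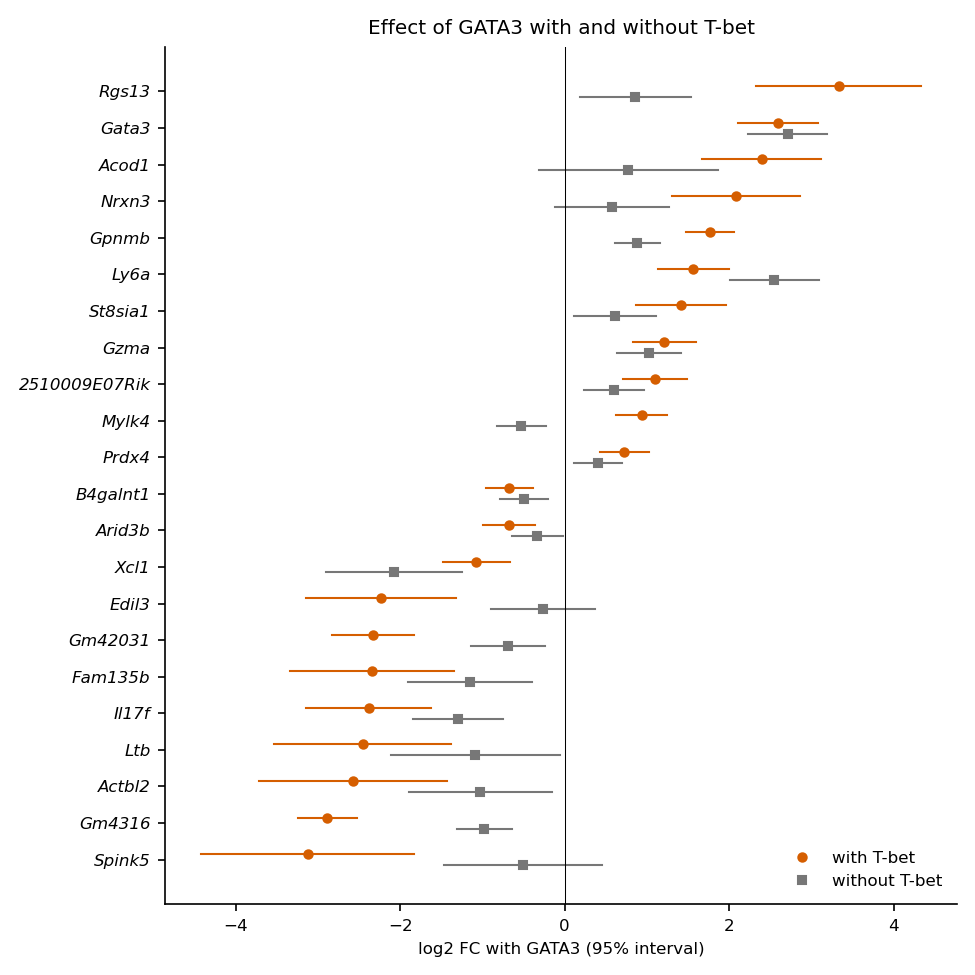
Log2 FC with GATA3 (horizontal axis, with 95% intervals) in lines with T-bet (circles, T-bet + GATA3 against T-bet + Plum) and without it (squares, GFP + GATA3 versus GFP + Plum) for 22 of the 25 called or smallest-p genes. Nkg7, Mrgprx1 and St6gal2, with at most 3 counts in each library of some line, are left out, and Mylk4 has its points on opposite sides of 0.

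All 9 TH1 cytokine and chemokine genes tested were lower on average in T-bet + GATA3, although 0 were called and 3 had an unadjusted p below 0.05, against 1.9% of all genes on that side. Their median log2 FC was -0.53, beside 0.00069 for all genes, and -0.79 and -0.44 from replicates 1 and 2 taken singly. Without T-bet the median was -1.19, with 6 of 9 at an unadjusted p below 0.05 on the lower side, against 1.53% of all genes there.

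Xcl1, the chemokine lymphotactin, was at 645 and 524 CPM in T-bet + Plum and 309 and 247 CPM in T-bet + GATA3, without overlap (log2 FC -1.07, SE 0.18, edgeR FDR = 0.247). Lta, which encodes lymphotoxin alpha, was at 188 and 138 CPM and at 79.3 and 65.6 CPM (log2 FC -1.17, SE 0.31, FDR = 0.888). Tnf, its neighbour on chromosome 17, was at 458 and 536 CPM and at 349 and 340 CPM (log2 FC -0.53, SE 0.12, FDR = 0.689). These 3 genes also had negative log2 FCs without T-bet, of -2.08, -1.43 and -0.81. The value of Xcl1 there rested on low counts, 47 and 31 in GFP + Plum and 6 and 9 in GFP + GATA3. Ccl3, a chemokine that attracts myeloid and T cells, was at 5418 and 4648 CPM in T-bet + Plum and 3906 and 2994 CPM in T-bet + GATA3, and its groups did not overlap either. Its log2 FC of -0.54 (95% interval -1.14 to 0.05, FDR = 1) compares with -1.80 (SE 0.28, FDR = 0.165) without T-bet. The interaction had an unadjusted p below 0.05 for 4 of the 9 genes (Ccl3, Ccl4, Xcl1 and Il2), against 2.58% of all genes, and at an FDR of at most 0.05 for 0 genes of the whole table (0%).

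Ifng, the defining cytokine gene of TH1 cells, was at 3970 and 2788 CPM in T-bet + Plum and 3476 and 3014 CPM in T-bet + GATA3. The groups overlapped, and the log2 FC of -0.06 had a 95% interval of -0.59 to 0.47 (edgeR FDR = 1). Il2, the T cell growth factor gene, was at 494 and 307 CPM and at 266 and 383 CPM, and Csf2, which encodes GM-CSF, at 509 and 209 CPM and at 288 and 317 CPM. Both overlapped between the lines, with intervals of -0.85 to 0.25 and -1.70 to 1.22. The sign of Ifng, Il2 and Csf2 turned when T-bet + Plum replicate 1 was left out (0.22, 0.08 and 0.54), and that of Ifng also without T-bet + GATA3 replicate 2 (0.03).

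Of the 10 TH1 receptor genes tested, 2 were lower at an unadjusted p below 0.05, against 1.9% of all genes on that side. A negative log2 FC was found for 8 of them, against 7364 of all 14791 genes, and the median was -0.18. Il18r1, the receptor for IL-18, was at 69.9 and 72.6 CPM in T-bet + Plum and 19.7 and 51.7 CPM in T-bet + GATA3 (log2 FC -0.99, SE 0.37, edgeR FDR = 1). The value was -0.47 without T-bet + GATA3 replicate 1 and -1.87 without replicate 2. Among the 7 TH1 transcription factor genes, 0 had an unadjusted p below 0.05, and their log2 FCs lay between -0.32 and 0.21.

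TH2 cytokine genes were sparse. Of 9 listed genes only Il4, Il5, Il10 and Il3 passed the filter, Il13 had at most 6 counts in any library, and 0 of the 4 had an unadjusted p below 0.05. Il4 was at 0.373 and 0.821 CPM in T-bet + Plum and 2.70 and 1.53 CPM in T-bet + GATA3, a log2 FC of 1.71 with a 95% interval from -0.50 to 3.91. Il5, which encodes the growth factor of eosinophils, was at 27.5 and 33.3 CPM in T-bet + Plum and at 97.2 and 5.59 CPM in T-bet + GATA3. The T-bet + GATA3 libraries thus lay on either side of both controls, and the log2 FC of 0.74 (interval -1.84 to 3.31) became -2.45 without T-bet + GATA3 replicate 1. No difference in these genes was detected.

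The 9 TH2 receptor and enzyme genes tested had a median log2 FC of -0.08, with 4 positive and 5 negative. Of the 9, 2 were higher and 1 lower at an unadjusted p below 0.05. The shares of all genes were 1.88% and 1.9%. Ccr8, a chemokine receptor of TH2 and regulatory T cells, was at 6.60 and 10.4 CPM in T-bet + Plum and 26.4 and 24.5 CPM in T-bet + GATA3 (log2 FC 1.56, SE 0.31, edgeR FDR = 0.479). Hpgds, which encodes prostaglandin D synthase, was at 6.97 and 4.51 CPM and at 31.9 and 11.5 CPM (log2 FC 1.93, SE 0.59, FDR = 1), and it was far higher in the lines without T-bet, at 204 and 86.1 CPM in GFP + Plum. DESeq2 called Ccr8 (FDR = 0.0152), and with offsets for transcript length also Hpgds (FDR = 0.0038). Without T-bet + GATA3 replicate 1 the log2 FC of Hpgds was 1.04. Il1rl1, the receptor for IL-33, was on the lower side, at 9.96 and 16.3 CPM and at 3.68 and 6.65 CPM (log2 FC -1.33, SE 0.36, FDR = 0.903). Ccr4 was at 7.84 and 9.78 CPM and at 13.5 and 10.8 CPM (log2 FC 0.45, interval -0.09 to 0.98, FDR = 1), compared with 1.45 (SE 0.22, FDR = 0.144) without T-bet. It was 0.28 without T-bet + GATA3 replicate 1. Ccr3, the eotaxin receptor gene, had at most 1 count in any library.

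Among the 11 TH2 transcription factor genes other than Gata3, 0 had an unadjusted p below 0.05, and the median log2 FC was -0.05. Maf, an activator of Il4, was at 1.87 and 2.05 CPM in T-bet + Plum and 1.51 and 2.20 CPM in T-bet + GATA3, against 28.2 and 30.7 CPM in GFP + Plum. The difference of -0.05 on the log2 scale (interval -0.67 to 0.56) changed sign with offsets for transcript length (0.18). Of the 7 genes of the GATA family and its partners that passed the filter, 0 had an unadjusted p below 0.05, and their log2 FCs lay between -0.26 and 0.18.

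**Figure D3:**
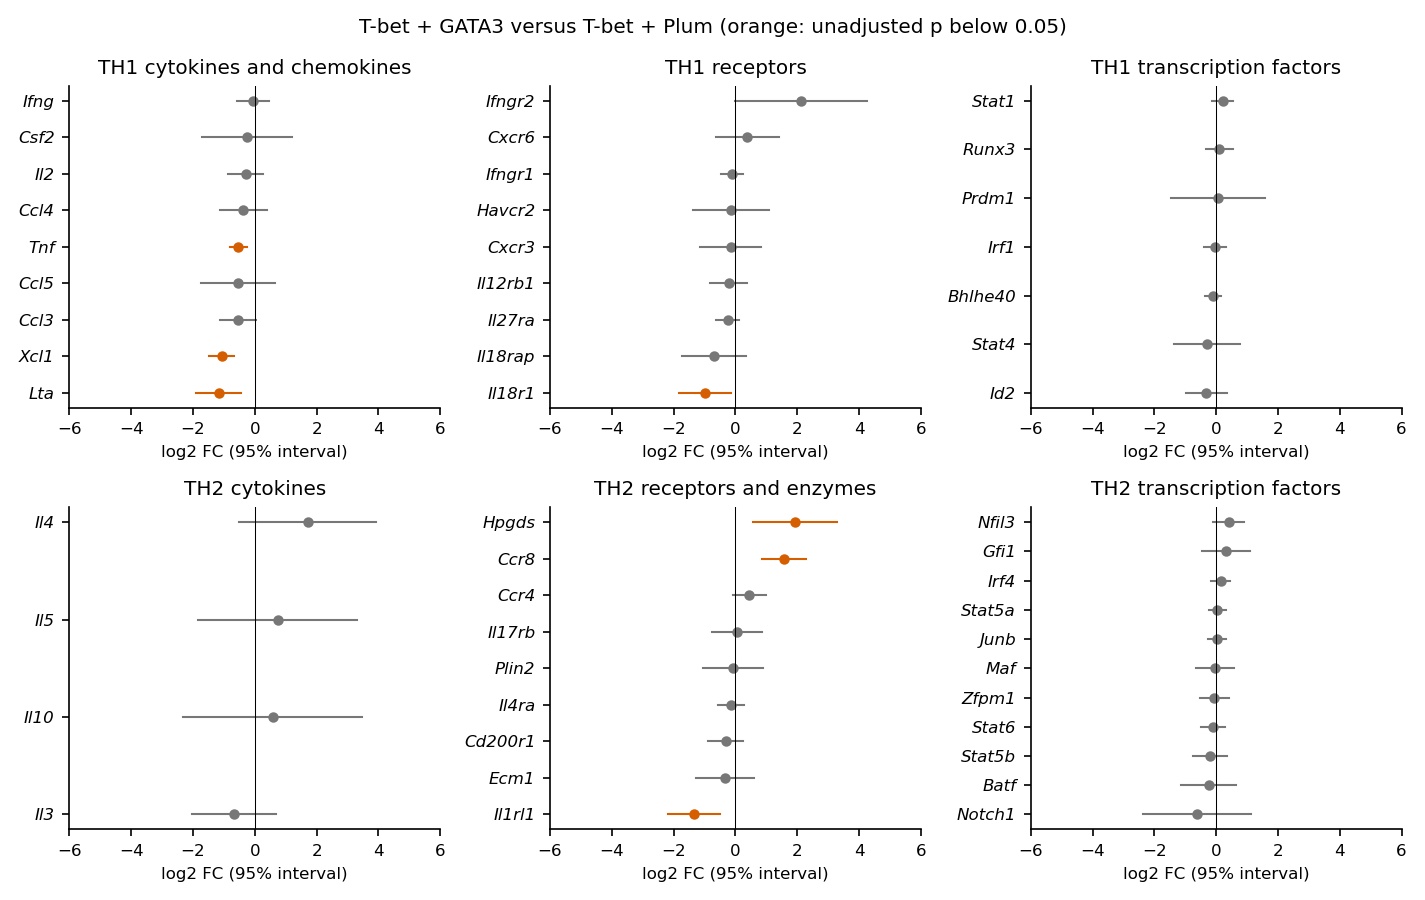
Log2 FC of members of the TH1 and TH2 lists between T-bet + GATA3 and T-bet + Plum (horizontal axes, with 95% intervals), ordered within each list, with an unadjusted p below 0.05 in orange. All 9 TH1 cytokine and chemokine genes lie left of 0. Of the 9 TH2 receptor and enzyme genes, 4 lie right of 0, Ccr8 and Hpgds among them, and 5 lie left, Il1rl1 among them.

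Of the 10 cytotoxic effector genes tested, 1 was higher (Gzma) and 2 lower (Nkg7 and Ctsw) at an unadjusted p below 0.05. The shares of all genes were 1.88% and 1.9%, and the median log2 FC of the list was -0.0020. Ctsw, the cathepsin of cytotoxic cells, was at 62.5 and 104 CPM in T-bet + Plum and 45.7 and 50.3 CPM in T-bet + GATA3 (log2 FC -0.79, SE 0.23, edgeR FDR = 1, and -0.38 without T-bet + Plum replicate 2). The list thus held members on both sides. Of the 17 interferon response genes tested, 3 were higher and 0 lower at an unadjusted p below 0.05, against 1.88% of all genes on the higher side, and the median was 0.39 (0.69 and 0.42 from replicates 1 and 2). Gbp2, a guanylate-binding protein gene, was at 20.9 and 31.2 CPM in T-bet + Plum and 49.9 and 61.0 CPM in T-bet + GATA3 (log2 FC 1.08, SE 0.39, FDR = 1). Irgm1, an immunity-related GTPase gene, was at 40.6 and 62.6 CPM and at 78.0 and 91.1 CPM (log2 FC 0.71, SE 0.29, FDR = 1), and the low-level gene Ifit1 at 1.12 and 0.889 CPM and at 7.14 and 1.66 CPM (log2 FC 2.11). Ifit1 was at a log2 FC of 0.74 without T-bet + GATA3 replicate 1, and Irgm1 at 0.43 without T-bet + Plum replicate 1.

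Of the 21 genes of the T cell receptor complex and early T cell programme, 2 were lower at an unadjusted p below 0.05 and 0 higher. The shares of all genes were 1.9% and 1.88%. Cd5, which restrains receptor signalling, was at 273 and 265 CPM in T-bet + Plum and 201 and 196 CPM in T-bet + GATA3 (log2 FC -0.44, SE 0.12, edgeR FDR = 0.903), and -0.54 without T-bet. Cd2, an adhesion receptor gene, was at 16.7 and 19.2 CPM and at 9.95 and 14.6 CPM (log2 FC -0.54, and -0.31 or -0.87 without T-bet + GATA3 replicate 1 or 2). Among 19 activation-induced transcription factor genes 11 had a negative log2 FC, against 7364 of all 14791 genes. The immediate early genes Egr1 and Egr2 were the 2 that were lower at an unadjusted p below 0.05, against 1.9% of all genes. Egr1 was at 61.1 and 58.6 CPM in T-bet + Plum and 43.8 and 32.3 CPM in T-bet + GATA3 (log2 FC -0.66, SE 0.16, FDR = 0.794). Egr2 was at 229 and 239 CPM and at 181 and 184 CPM (log2 FC -0.36, SE 0.14, FDR = 1). Both groups were separate for each gene, and the median of that list was -0.02.

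The 16 cytokine and activation receptor genes tested included 2 on the lower side, Il2rb and Il21r, and 1 on the higher side, Il6ra, at an unadjusted p below 0.05. The shares of all genes were 1.9% and 1.88%. Il2rb, a chain of the receptors for IL-2 and IL-15, was at 49.7 and 93.5 CPM in T-bet + Plum and 35.9 and 35.1 CPM in T-bet + GATA3 (log2 FC -1.02, SE 0.37, edgeR FDR = 1). Il6ra, the IL-6 receptor gene, was at 3.24 and 3.28 CPM and at 8.87 and 4.32 CPM (log2 FC 0.99, SE 0.34, FDR = 1). The log2 FCs of Il2rb and Il21r were -0.48 and -0.36 without T-bet + Plum replicate 2, and that of Il6ra was 0.40 without T-bet + GATA3 replicate 1. Of 11 homing and integrin genes, 3 were lower at an unadjusted p below 0.05, among them Itgal and Ccr2, 0 were higher and 10 had a negative log2 FC, beside 1.9% of all genes lower at that p. The median was -0.28, but it was 0.11 from replicates 1 and -0.64 from replicates 2. Itgal, the alpha chain of LFA-1, was at 491 and 556 CPM and at 311 and 385 CPM (log2 FC -0.59, SE 0.17, FDR = 1). Ccr2, a receptor for monocyte chemoattractants, was at 5.60 and 17.3 CPM and at 2.38 and 2.66 CPM (log2 FC -2.19, and -1.14 without T-bet + Plum replicate 2). In the Ly6 family, 5 of 14 genes were tested, and beside Ly6a only Ly6g5b had an unadjusted p below 0.05, at 1.49 and 1.23 CPM and at 0.541 and 0.665 CPM.

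The 15 cell cycle genes differed by replicate. Their median log2 FC was 0.31 with 14 of 15 positive, but it was -0.62 from replicates 1 and 0.98 from replicates 2, and 0 had an unadjusted p below 0.05. Mki67, a marker of dividing cells, was at 93.6 and 70.6 CPM in T-bet + Plum and 76.8 and 146 CPM in T-bet + GATA3. Over the 16 lists, the medians of replicates 1 and 2 were on one side of 0 for 5.

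**Figure D4:**
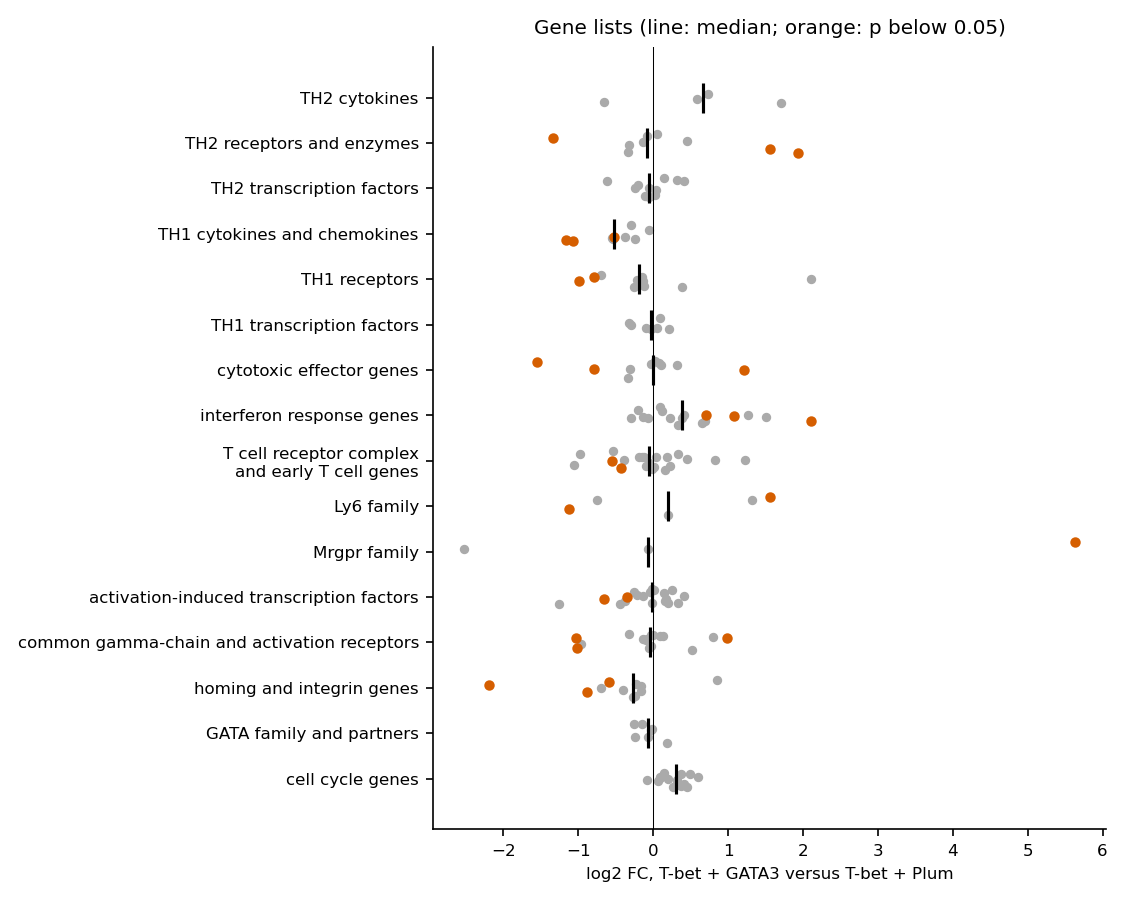
Log2 FC of every tested member of the 16 gene lists between T-bet + GATA3 and T-bet + Plum (horizontal axis), with a black line at each list's median and members at an unadjusted p below 0.05 in orange. Points are spread vertically only for legibility, and the medians run from -0.53 for TH1 cytokines and chemokines to 0.66 for TH2 cytokines, the latter being 2.13 from replicates 1 and -0.94 from replicates 2.

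The effect of GATA3 with T-bet was set beside its effect without T-bet, in libraries that the comparisons do not share. A single fit over all 8 libraries estimated each gene's spread for both comparisons. Their p-values, and the overlaps below, thus do not come from independent tests. In GFP + GATA3 versus GFP + Plum, 3 genes were called (0.0203%), namely Gata3, Mrgprx1 and Ly6a, and all 3 were higher with T-bet too. Of these, Gata3 was the gene introduced in both GATA3 lines, and Mrgprx1 could pass the filter only through those lines. Of the 278 genes on the higher side with T-bet at an unadjusted p below 0.05, 58 were also higher without it at that level, 20.9% of these and 18.1% of the 320 genes higher without T-bet, which make up 2.16% of all genes, while 10 were lower without it at that level. On the lower side 46 genes were shared, 16.4% of 281 and 20.3% of 227, the latter being 1.53% of all genes, and 6 went the opposite way. Over all 14791 genes the log2 FCs with and without T-bet had the same sign for 55.03% and correlated across genes with r = 0.125. The genes higher with T-bet had a median log2 FC of 1.01 there and 0.18 without it, and the genes lower with T-bet -0.89 and -0.12. Genes picked at a threshold in one comparison are larger there by that choice. Of the 56 named genes, 4 had libraries that lay apart in opposite directions with and without T-bet, namely Mylk4, Nkg7, Egr1 and Cd2. However, Nkg7 without T-bet rested on 0 and 1 counts against 1 and 4. Without T-bet the intervals of the log2 FC included 0 for Egr1 (0.17, interval -0.21 to 0.54) and Cd2 (0.40, interval -0.26 to 1.07). For Nkg7, Egr1 and Cd2 an opposite response was thus not shown. Mylk4 was at -0.52 there (interval -0.83 to -0.22, edgeR FDR = 0.615). Some of the named genes were also picked because their groups were separate with T-bet. Between the lines that both carry T-bet, 14.2% of all genes lay apart with GATA3 higher and 16% with GATA3 lower. How many of all genes lay apart in opposite directions was not counted. An interaction passed the FDR for 0 genes in edgeR, with 381 at an unadjusted p below 0.05, and for 15 in DESeq2.

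The differences were also compared between harvests. Across the 14791 genes, which are not independent, the log2 CPM difference of replicates 1 and that of replicates 2 correlated with r = 0.0102, and with r = 0.0554 when the libraries were set crosswise. The median 95% half-width of a log2 FC was 0.54. The 20 uncalled genes of smallest p were picked for separate groups, so their place on one side in both replicates follows from that choice.

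**Figure D5:**
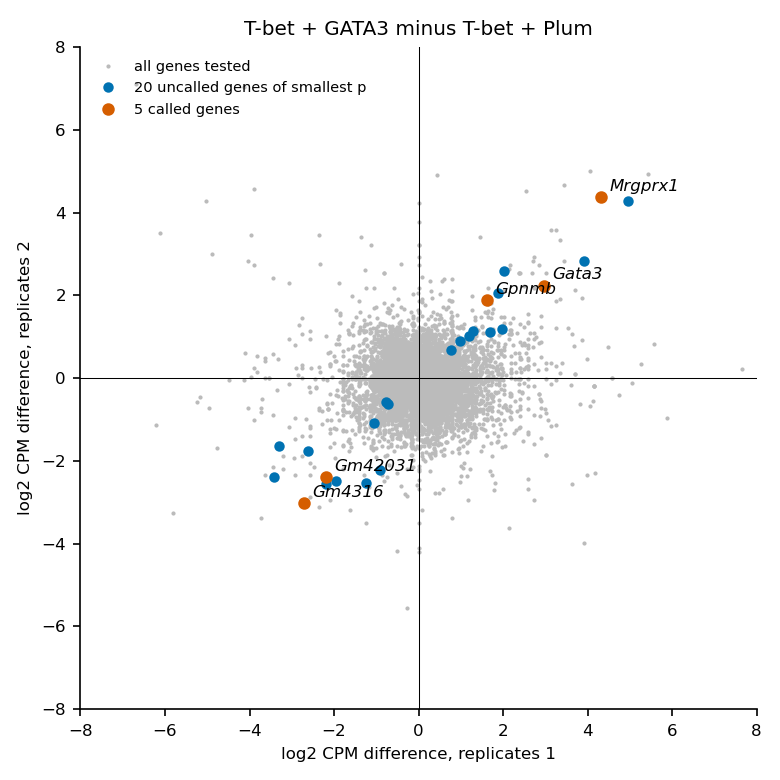
Log2 CPM difference (T-bet + GATA3 minus T-bet + Plum, prior count 2) from replicates 2 (vertical axis) against that from replicates 1 (horizontal axis) for 14791 genes in grey, with the 20 uncalled genes of smallest p in blue and the 5 called genes in orange. The grey cloud has no slope to speak of (r = 0.0102), and the coloured points lie in the upper right and lower left.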

How the data were processed

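RNA-seq values from 8 libraries of 4 EL4 lines (2 per line) were used. The authors filtered reads with FastQC, trimmed them with Trim Galore and quantified transcripts with kallisto on mouse build mm10. They deposited, for each library and without pooling, values for 136535 transcripts, namely effective lengths, estimated counts and TPM. The authors deposited the estimated counts unscaled and the TPM scaled per library, and TPM served here only for transcript length. The methods name Gencode M20, whereas the deposited values carry M18. The labels describe poly-A selection and an rRNA depletion step, and a legend counts 3 replicates where 2 libraries were analysed here. The strand setting of the counting is not given in the sources used here.

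Summing the estimated counts over each gene's transcripts and rounding the sums gave 54146 genes, 54079 of them found in Gencode M21 (GRCm38) for positions. For 3390 tested genes with clone names, symbols came from the reference table. A single edgeR 4.0.16 fit (R 4.3.3) over the 4 lines used filterByExpr, TMM and quasi-likelihood F tests (residual degrees of freedom 4) with Benjamini-Hochberg adjustment, with no replicate block. The interaction was judged on its FDR alone. SEs are the log2 FC over the root of the test statistic. Intervals of count ratios are exact and cover counting error only. Totals ran from 8038284 to 16003190 counts, and 3 counts correspond to 0.188 to 0.373 CPM. Replicates were checked and were not copies.

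Named genes were Gata3, Tbx21, every called gene, the 10 uncalled protein-coding genes of smallest p on each side with separate groups, list members with an unadjusted p below 0.05, and a fixed set (Ifng, Il4, Il5, Il13, Ccr3, Ccr4, Maf, Hpgds, Il18r1, Il2, Csf2, Ccl3, Ly6a, Mrgprx1). The comparison, lists and rule were chosen with earlier results of these data known. Alternatives were DESeq2 1.42.0, length offsets, other scalings and filters, the replicate block, subsets of lines and each library left out. The statistics were tested on simulated data. Some genes that the rule names are not reported here.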

Additional observations from a re-analysis of the deposited data

How the results depend on the processing

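For T-bet + GATA3 against T-bet + Plum, beside 5 genes called, DESeq2 called 23 and DESeq2 with length offsets 24, edgeR without a filter on low counts 124 (3 of them outside the genes tested with it), protein-coding genes only 2, and the compared libraries alone 3. Between 1 and 8 genes were called with a library left out, where the lone sample of a line is assumed to vary like the others. For GFP + GATA3 against GFP + Plum, beside 3, the counts were 29, 28, 138, 5 and 0 in that order of settings, and 0 to 5 with a library left out. For the interaction, beside 0, they were 15, 15 and 145 for the first 3 settings, and 0 to 3 with a library left out. The correlation of replicate differences, 0.0102, was 0.0554 crosswise, 0.0366 with a prior count of 0.5 and -0.0125 with a prior count of 5. The cause of these shifts was not tested.

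Of 56 named genes, 50 kept their direction under every alternative run for them. With a library left out, log2 FCs ran from -0.602 to 0.083 for Il2, -0.748 to 0.537 for Csf2, -0.29 to 0.218 for Ifng, -2.45 to 1.66 for Il5, -0.106 to 0.199 for Tbx21 and -0.395 to 0.147 for Maf. Tbx21 was also at -0.000811 with library size only, and Maf at 0.183 (DESeq2) and 0.176 (edgeR) with length offsets.

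Deviations of same-numbered libraries correlated with r = -0.0455 between the compared lines, 0.249 between the GFP lines and 0.059 to 0.302 over the other 4 pairs of lines, and with 2 replicates a line the numbers were not taken to pair the libraries. With the replicate block 4 genes were called, Mrgprx1 being lost (FDR = 0.0571), and 4 and 0 for the other 2 counts. Gzma (edgeR FDR = 0.0294, log2 FC 1.22) and Xcl1 (FDR = 0.0239, log2 FC -1.07) then passed the FDR limit and missed only the log2 FC limit. By edgeR 818 genes had an unadjusted p below 0.05 with the block, against 559 without it. Low counts limited Il4, Il10, Il13 and the Mrgpr genes.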

Other observations

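DESeq2 called 6 genes that the rule for named genes did not pick, and they are given here as values, chosen after they were seen. Prrg4 was at 16.7 and 12.3 CPM in T-bet + Plum and 67.4 and 53.5 CPM in T-bet + GATA3 (DESeq2 log2 FC 2.07, SE 0.33, FDR = 4.86e-07). Calcrl, a receptor for adrenomedullin and calcitonin gene-related peptide, was at 35.5 and 22 CPM and at 105 and 66.3 CPM (1.59, SE 0.33, FDR = 0.00124). Cpa3, the carboxypeptidase of mast cells, was at 3.36 and 3.76 CPM and at 11.4 and 13.6 CPM (1.81, SE 0.37, FDR = 0.000891), against 89.9 and 212 CPM in GFP + Plum. Inhba, an activin subunit gene, was at 4.98 and 7.39 CPM and at 35.0 and 14.8 CPM (2, SE 0.50, FDR = 0.0238). Gvin1 and the pseudogene Mpc1-ps each had 0 counts in 1 of the 4 libraries. By edgeR these 6 genes had unadjusted p from 0.000492 for Prrg4 to 0.00717 for Gvin1, and FDRs from 0.331 to 0.969.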
